A study of Homo sapiens with 2 samples.

Results

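The insulin-like growth factor (IGF) binding protein family was examined by ChIP-on-chip in the Meg-01 line, which was derived from a human megakaryocytic leukemia. The members were the 7 genes IGFBP1 to IGFBP7 and IGF1R, which encodes the receptor tyrosine kinase for IGFs. They were chosen by name, as every probe that the array annotation assigns to 1 of these 8 symbols together with a distance from the gene start. The 8 members were 8 of the 17280 genes named by the arrays and had 343 probes, all 343 of which passed the filters and gave 321 windows of 3 adjacent probes. Chromatin of untreated cells was pulled down with the GATA1 (C-20) antibody and labeled with Cy5. A normal goat IgG pull-down from the same chromatin was labeled with Cy3 and hybridized with it. A set of 2 promoter arrays carried different probes (chIP1 and chIP2), so there was 1 hybridization for each probe. Replicates and swapped dyes were lacking, and the antibody and the dye cannot be told apart. No p-value can be given for a locus in this design. Every SD below is a spread over neighboring probes, which share sheared DNA fragments and are not replicates.

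IGF binding proteins are secreted proteins that bind IGF1 and IGF2 in blood and tissue and set how much of either ligand reaches IGF1R. IGFBP3 carries most circulating IGF in a complex with the acid-labile subunit IGFALS, IGFBP1 is a liver product lowered by insulin, IGFBP6 prefers IGF2, and IGFBP7 binds IGFs only weakly and is also known as an extracellular matrix protein. GATA1 is the zinc-finger transcription factor of the erythroid and megakaryocytic lineages and recognizes the letters GATA. IGFBP7 was 1 of 5 promoters that the study checked by conventional ChIP and PCR, and the question here was how its array signal compared with that of the other members. The study also lists IGFBP5 and IGF2R among genes with both a ChIP-on-chip peak and higher expression in its GATA1 knockdown clones.

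The value of a probe was the log2 ratio of GATA1 IP to IgG with the array median set to 0, so that 1 is a 2-fold higher IP signal. A window was the mean of 3 adjacent probes, each step at most 1000 bp. A window of at least 1 was called enriched, and a window of -1 or less was called IgG-side. The medians over all genomic probes were 543 for IP and 412 for IgG on chIP1 and 544 and 440 on chIP2 (mean signal, before background correction). IGFBP1, IGFBP2, IGFBP3, IGFBP5 and IGFBP7 lay on chIP1, and IGFBP4, IGFBP6 and IGF1R on chIP2. Distances are those of the array annotation, negative upstream of the gene start, and coordinates are those of the array files, whose genome build is not given in the sources used here.

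The primers of the study's IGFBP7 assay and the sequences upstream of the starts of members with contrasting signals are shown here. The array probes were not placed on these sequences. Neither PCR primer used for IGFBP7 in the study, searched on both strands, occurred in any of 35116 RefSeq promoters. That set held no IGFBP7 promoter, so the search could not find the amplicon there. The amplicon was not placed on the profile. The primers were the following.
IGFBP7 forward primer: gccgatgggtccttgta
IGFBP7 reverse primer: cccccaactcctaagaagac

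RefSeq promoters (build GRCh38.p14) were found for 6 of the 8 members, 8 promoters in all, of which 3 belonged to IGFBP2. IGFBP1 and IGFBP7 are named only. The 250 bases upstream of the RefSeq start, which may differ from the start used by the array, are printed for the 4 promoters the text returns to: IGF1R, the receptor of the family, IGFBP5, with the highest window of the family, IGFBP4, with no enriched window, and the IGFBP2 promoter that held a GATA. Capitals mark GATA on either strand (TATC is GATA on the opposite strand) or a TATAA between -40 and -16.
IGF1R (chr15:98648289-98648538, + strand): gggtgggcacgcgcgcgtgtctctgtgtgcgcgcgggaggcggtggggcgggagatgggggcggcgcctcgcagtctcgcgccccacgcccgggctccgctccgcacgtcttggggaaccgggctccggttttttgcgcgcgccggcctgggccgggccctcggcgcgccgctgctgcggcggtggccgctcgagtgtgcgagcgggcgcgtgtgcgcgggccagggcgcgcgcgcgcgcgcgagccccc
IGFBP5 (chr2:216695550-216695799, - strand): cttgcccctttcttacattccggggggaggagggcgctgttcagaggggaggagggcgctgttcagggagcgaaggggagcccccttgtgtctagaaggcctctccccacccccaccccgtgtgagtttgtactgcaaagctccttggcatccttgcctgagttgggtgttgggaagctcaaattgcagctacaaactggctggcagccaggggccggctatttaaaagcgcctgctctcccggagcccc
IGFBP4 (chr17:40443200-40443449, + strand): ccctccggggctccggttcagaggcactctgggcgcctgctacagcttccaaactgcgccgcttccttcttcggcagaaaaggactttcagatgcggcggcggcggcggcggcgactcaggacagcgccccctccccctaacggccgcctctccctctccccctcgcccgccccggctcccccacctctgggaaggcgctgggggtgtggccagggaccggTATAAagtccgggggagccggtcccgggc
IGFBP2 (chr2:216633170-216633419, + strand): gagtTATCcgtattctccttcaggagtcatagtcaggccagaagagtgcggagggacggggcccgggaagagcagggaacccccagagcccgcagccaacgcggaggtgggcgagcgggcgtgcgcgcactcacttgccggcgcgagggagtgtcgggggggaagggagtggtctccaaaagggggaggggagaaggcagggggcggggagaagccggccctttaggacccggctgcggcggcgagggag

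GATA on either strand was present in 1 of the 8 promoters, the IGFBP2 promoter above, where it began at -246. Over all 35116 promoters, 45.6% held GATA on either strand in the same 250 bases. The longer form with A or T before and A or G after these letters, which contains GATA, was found in 0 of the 8 promoters on either strand and in 22.3% of all promoters. The TATAA of IGFBP4 began at -29, and 3.91% of all promoters had these letters in that interval. GC content of the printed promoters was 81.2% in IGF1R, 61.2% in IGFBP5, 71.6% in IGFBP4 and 69.2% in IGFBP2, against a median of 58% over all promoters. These are letter matches in a short window and say nothing about sites further from the start, where several of the windows below lay.

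An enriched window was found in 7 of the 8 members. IGFBP4 was the exception. Counting only windows whose 3 probes were all annotated to the gene, chosen after the data were seen, IGFBP6 was also without one, leaving 6 of 8, beside 55.4% of all genes. For comparison, 59.4% of the genes of chIP1 and 54.9% of the genes of chIP2 had an enriched window, so such a window was the usual state of a gene on these arrays. The 5 members on chIP1 all had one, as did 2 of the 3 on chIP2. The median of the highest windows of the 8 members was 1.44, beside 1.09 over all 17054 genes with a window. The members had more windows to choose from, 21 to 84 with a median of 38 against 23 over all genes, and the genes with 21 to 84 windows had a median of 1.22. An IgG-side window was found in 4 members, IGFBP1, IGFBP3, IGFBP6 and IGF1R, beside 55.5% of the genes of chIP1 and 50.5% of those of chIP2. These 4 members also had enriched windows, so both directions occurred within 1 locus. Counted as windows, 22 of 181 member windows on chIP1 were enriched (12.2%, against 7.98% of all windows of that array) and 9 of 140 on chIP2 (6.43%, against 7.26%).

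**Figure D1:**
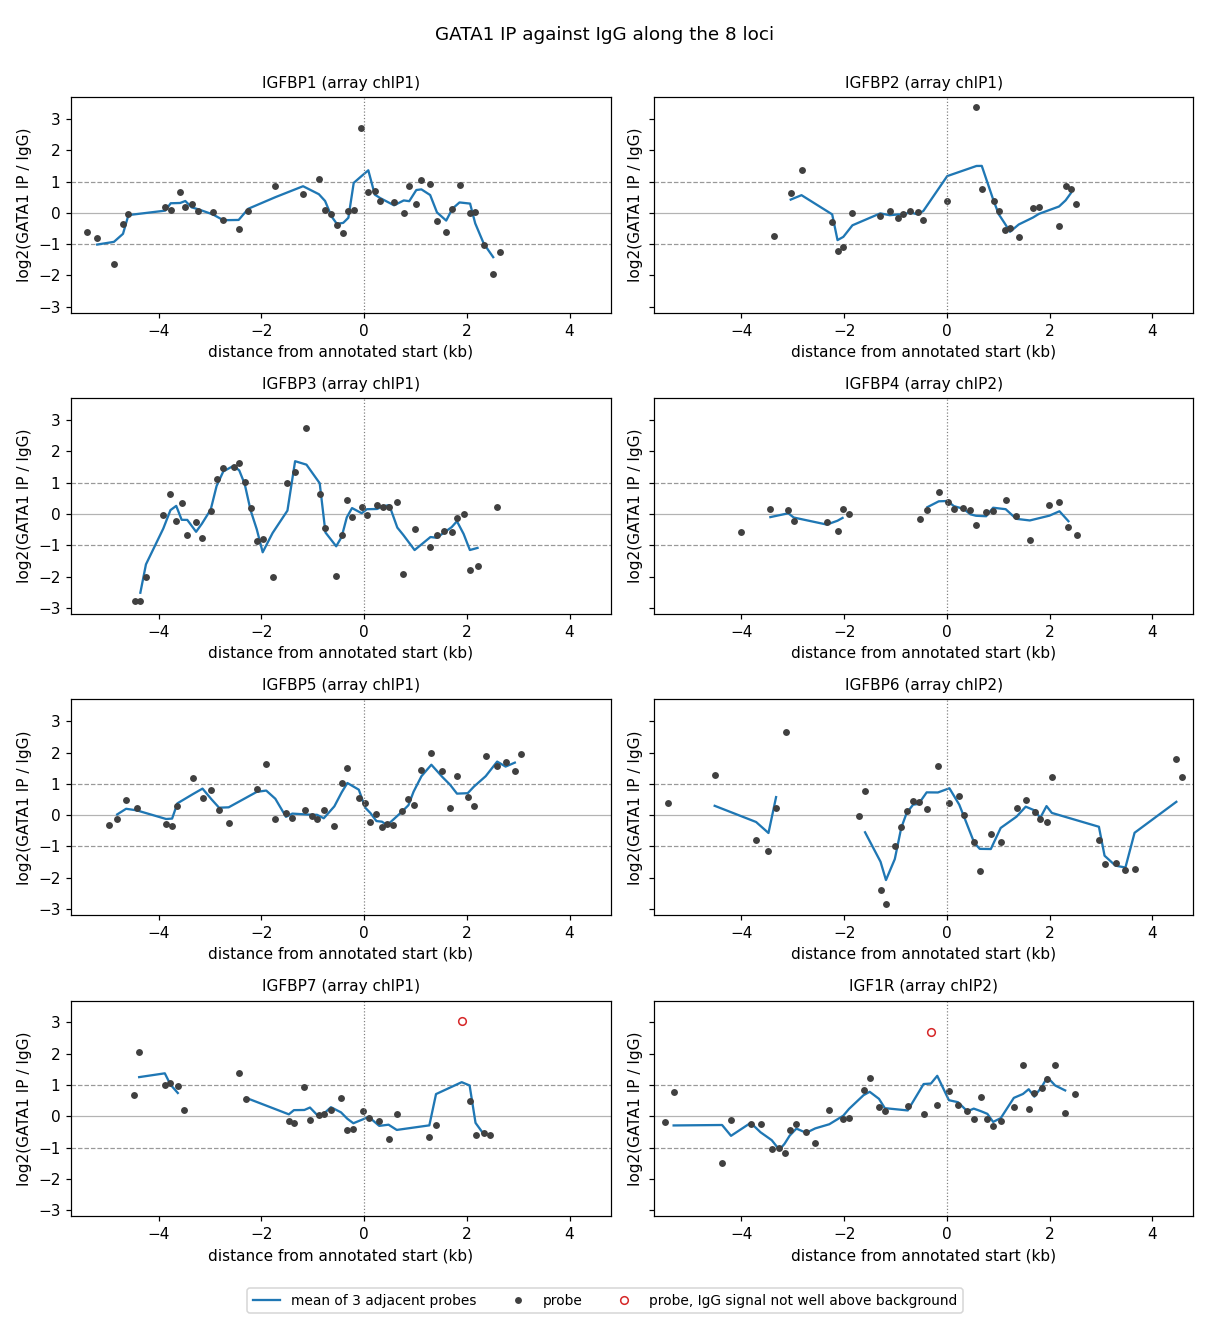
Log2 ratio of GATA1 IP to IgG (vertical axis) against distance from the annotated gene start in kb (horizontal axis) for the 8 loci; points are probes, lines the mean of 3 adjacent probes of the gene, dashed lines 2-fold in either direction. Open red circles are the 2 probes whose IgG signal was not well above background. IGFBP4 stays close to 0, IGFBP3 and IGFBP6 swing to both sides, IGFBP5 is raised from 1117 to 1526 bp and from 2367 to 3050 bp, and IGFBP7 is raised at its upstream end; the probes of IGF1R at the far end of the gene are not drawn, nor is the IGFBP6 window that includes a probe not annotated to that gene.

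IGFBP7 had its highest window far upstream of the start, centered at -3879 bp (chr4:57821208-57821875), with a mean of 1.37 ± 0.59 (SD, 3 probes), a 2.59-fold excess of IP. Its 3 probes gave 2.06 at -4378 bp, 1.01 at -3879 bp and 1.05 at -3769 bp. All 3 probes were past 2-fold, and their IgG mean signals of 323, 372 and 349 lay below the array median of 412. The window was at the 67.3rd percentile of the highest windows of chIP1 genes. It was part of a raised stretch of 5 probes from -4488 to -3626 bp, with values between 0.69 and 2.06. With a normexp background correction the highest window fell to 0.80, below 2-fold.

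A further enriched IGFBP7 window, of 1.09, lay inside the gene and rested on 1 probe. That probe, at 1900 bp, had a value of 3.06, while its neighbors at 1400 bp and 2054 bp gave -0.28 and 0.48. Its IgG signal was not well above background, so the ratio (8.34-fold on the processed signals) is uncertain. The mean signals of the spot were 389 for IP and 297 for IgG, at the 1.81st percentile of intensity, and under normexp its value was 0.20.

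Near the IGFBP7 start the 2 channels were close. The 10 probes from -1000 to 500 bp averaged -0.07 ± 0.37 (SD over probes), and no window centered there reached 2-fold, the highest being 0.29. Over the members, 4 of 8 had an enriched window centered in that interval (IGFBP1, IGFBP2, IGFBP5 and IGF1R), beside 28.4% of all genes with a window there. The array signal of IGFBP7 thus lay at the upstream end of the tiled region. The 8 probes more than 2000 bp upstream ranged from 0.20 to 2.06 and averaged 0.99 ± 0.56. This mean was at the 98.2nd percentile of 6019 chIP1 genes with at least 3 probes there, whose median was -0.16, and it was the highest of the 8 members for that stretch. The next were IGFBP6, with 0.44 ± 1.39 over 6 probes, and IGFBP5, with 0.25 ± 0.50 over 13 probes. The SD of IGFBP6 was larger than the difference, and the means of IGFBP7 and IGFBP5 differed by more than either SD. The percentile of IGFBP7 was 98.1 under normexp, where the mean was 0.63. The stretch was singled out after its values were seen.

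**Figure D2:**
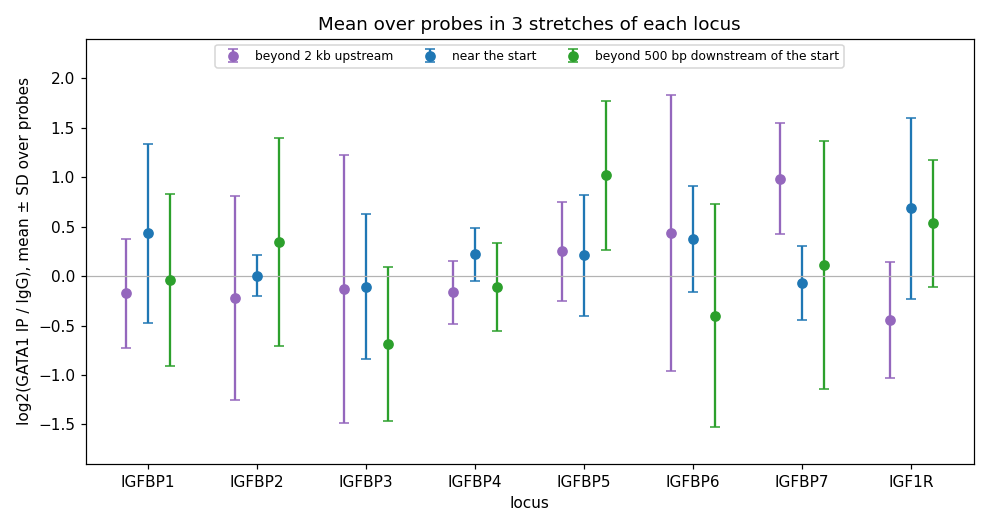
Mean log2 ratio of GATA1 IP to IgG over the probes of 3 stretches of each locus (vertical axis; bars are the SD over probes): more than 2000 bp upstream, from -1000 to 500 bp, and more than 500 bp downstream of the start. IGFBP7 has the highest mean upstream (0.99) and IGFBP5 the highest downstream (1.02), while near the start the SDs of all 8 loci overlap.

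Set against the family, IGFBP7 ranked 5th of 8 by its highest window. Its 1.37 was 0.13 below the median of the other 7 members (1.502) and 0.22 below the median of the 4 others on chIP1 (1.60), both less than the SD of 0.45 among the other members. In descending order the highest windows were IGFBP5 with 1.71 ± 0.16 (SD, 3 probes), IGFBP3 with 1.69 ± 0.93, IGF1R with 1.51 ± 0.35, IGFBP2 with 1.502 ± 1.63, IGFBP7 with 1.37 ± 0.59, IGFBP1 with 1.36 ± 1.17, IGFBP6 with 1.15 ± 0.68 and IGFBP4 with 0.42 ± 0.26. Each neighboring pair in this order differed by less than the larger of its SDs, except IGFBP6 and IGFBP4. Values of chIP1 and chIP2 were centered separately. The ranking compares maxima over unequal numbers of windows: 21 in IGFBP4, 26 in IGFBP7 and in IGFBP2, 44 in IGFBP3 and in IGFBP5, and 84 in IGF1R. IGF1R ranked above IGFBP7 through a window far downstream of its start. On the start side its highest window was 1.29. The order depended on single probes: by the median of 3 probes, chosen after the data were seen, the highest window of IGFBP2 was 0.77 and that of IGFBP1 0.91, and both lost the call.

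A stricter reading, also chosen after the data were seen, asked that all 3 probes of a window be past 2-fold. By it 4 of the 8 members had such a window (IGFBP3, IGFBP5, IGFBP7 and IGF1R), beside 23.2% of all genes. IGFBP5 had 4 such windows, IGFBP3 had 3, IGF1R had 2 and IGFBP7 had 1. Under normexp 1 member had such a window, beside 12.6% of all genes.

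**Figure D3:**
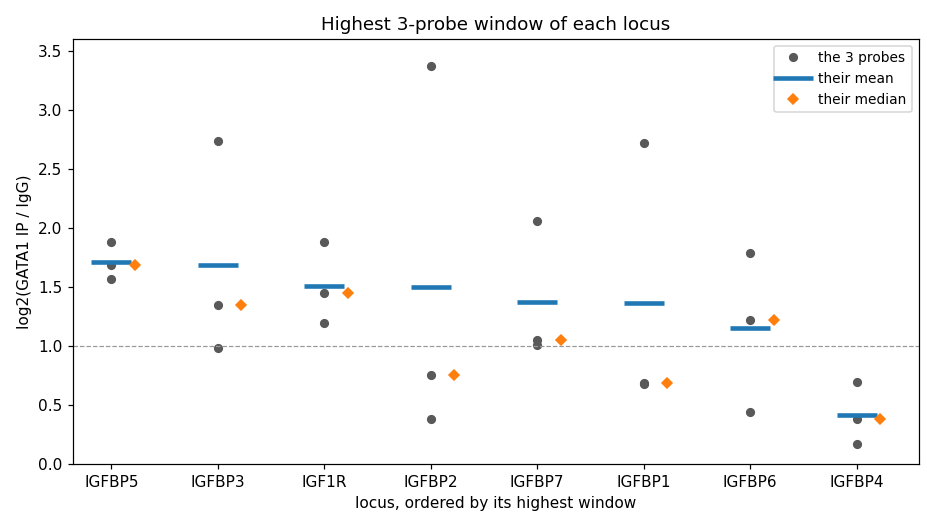
The highest 3-probe window of each locus, ordered by its mean; the vertical axis is the log2 ratio of GATA1 IP to IgG, gray points are the 3 probes, blue bars their mean and orange diamonds their median. The 3 probes lie together in IGFBP5 (1.57 to 1.88), whereas the means of IGFBP2 and IGFBP1 follow 1 probe each (3.37 and 2.71).

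IGFBP5, a binding protein of bone, muscle and connective tissue, had the highest window of the family, inside the gene. It was centered at 2590 bp (chr2:217382997-217383440) with probes of 1.88, 1.57 and 1.69, at the 83rd percentile of chIP1. The gene had 8 enriched windows, of which 7 fell into 2 runs inside the gene. The first ran from 963 to 1674 bp with 3 of 5 probes past 2-fold, and the second from 2137 to 3050 bp with 5 of 6. The windows between the runs were below 2-fold, and the probes at 1526, 1808, 2017 and 2137 bp were dim, at or under the 6.16th percentile of intensity. The last 5 probes, from 2367 to 3050 bp, gave 1.88, 1.57, 1.69, 1.40 and 1.95. The 16 probes more than 500 bp downstream of the start averaged 1.02 ± 0.75, at the 98.5th percentile of 7696 chIP1 genes. Under normexp the percentile was 94.7. This stretch, too, was singled out after its values were seen. A narrower window of 1.03 was centered at -326 bp, near the start, with probes of 1.02, 1.52 and 0.54. No IGFBP5 window was IgG-side, and its lowest was -0.33.

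IGFBP3 showed the steepest alternation. Going toward the start, 3 adjacent probes at -4467, -4355 and -4246 bp gave -2.77, -2.78 and -2.01, a window of -2.52 (chr7:45738329-45738603) that was at the 3.59th percentile of lowest windows on chIP1. It was followed by 5 probes in a row past 2-fold on the IP side, from -2871 to -2324 bp, with values of 1.11, 1.48, 1.504, 1.64 and 1.03. Between -2089 and -1781 bp the probes were again on the IgG side (-0.87, -0.81 and -2.00), and the highest window of the gene, centered at -1343 bp (chr7:45735205-45735633), came next with 0.98, 1.34 and 2.74. The 2 enriched stretches thus flanked an IgG-side one, and all were within 1 gene's tiled region. Near the start the 11 probes averaged -0.11 ± 0.73, and the 12 probes further inside averaged -0.69 ± 0.78, at the 9.37th percentile of chIP1 genes.

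IGFBP1, whose probes lay 27620 bp from those of IGFBP3 on the same chromosome, had its highest window across the start (center 82 bp, chr7:45701117-45701428). The probe at -57 bp gave 2.71, while those at 82 and 208 bp gave 0.68 and 0.69. The first of these was a dim spot (17.7th percentile of intensity) with mean signals of 520 for IP and 316 for IgG. The other 2 were bright, at the 92.5th and 97.1st percentiles, with IP signals of 1393 and 2087 against IgG signals of 636 and 855. At 2513 bp the same gene had an IgG-side window of -1.42 in which all 3 probes were past 2-fold toward IgG (-1.02, -1.96 and -1.27).

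IGFBP2, which shares chromosome 2 with IGFBP5 at a distance of 56534 bp between their probes, had a highest window of 1.502 centered at 679 bp (chr2:217324186-217324563). It was carried by the probe at 576 bp with 3.37, next to 0.76 and 0.38. That spot had mean signals of 408 for IP and 304 for IgG and lay at the 2.88th percentile of intensity, and under normexp it gave 0.41. The enriched window near the IGFBP2 start (1.18, center 6 bp) contained the same probe beside -0.22 and 0.37. The 6 probes from -1000 to 500 bp, which leave that spot out, averaged 0.00 ± 0.21. No probe within 1000 bp upstream of the array's start was past 2-fold in either direction.

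Like IGFBP3, IGFBP6 had probes past 2-fold on both sides, but unlike IGFBP3 it had no window with all 3 probes past 2-fold on the IP side. Its highest window, 1.15 ± 0.68, lay at the end of its tiled region (center 4575 bp, chr12:51782146-51782480). It held probes of 1.79, 1.22 and 0.44, the last of which is not annotated to IGFBP6. In windows of its own probes alone the highest was 0.86, near the start, below 2-fold. The probe of 1.79, at 4466 bp, was dim (7.33rd percentile of intensity) and gave -0.14 under normexp. The lowest window of IGFBP6 was deeper, -2.08 at -1186 bp, with probes of -2.40, -2.85 and -0.98, at the 8.38th percentile of chIP2. Further IgG-side regions spanned 531 to 1047 bp, with a lowest window of -1.08, and 2959 to 3653 bp, where 5 probes ranged from -1.75 to -0.79. The probe at -3130 bp gave 2.64 with its nearest upstream neighbor at 0.23, and had no neighbor within 1000 bp on the other side, so it entered only 1 window. Upstream, 15 probes from -3714 to -175 bp were also annotated to SOAT2, a cholesterol-esterifying enzyme, and cannot be assigned to 1 of the 2 genes.

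IGFBP4, the substrate of the protease PAPPA, was flat. Its 25 probes ranged from -0.84 to 0.70 with an SD of 0.38, the smallest of the 8 loci, beside 0.73 to 1.20 in the others. The highest window, 0.42, was centered at 14 bp (chr17:35853021-35853358) with probes of 0.70, 0.38 and 0.17, at the 9.22nd percentile of chIP2. The lowest was -0.34. Its probes were also the brightest of the family, with a median at the 77.3rd percentile of intensity against 32.4 in IGFBP7, the dimmest. The part of intensity in the flat profile was not tested.

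IGF1R was tiled at both ends, with 41 probes around the start and 47 probes between 306538 and 314109 bp, of which 30 were annotated as downstream. The highest window of 1.51 lay in this distant part (center 311520 bp, chr15:97321559-97321942), where 4 adjacent probes gave 1.19, 1.45, 1.88 and 1.03. These spots were of middle to high intensity, and the window was 1.32 under normexp, the highest of the 8 members under that correction. The 47 probes nevertheless averaged 0.01 ± 0.97, with 2 IgG-side windows in the same part. Near the start the mean of 7 probes was 0.69 ± 0.92. It fell to 0.35 without the probe at -311 bp described next and to 0.21 under normexp, and differed from the mean of every other member by less than its own SD. The enriched window there (1.29, center -188 bp) rested on the probe at -311 bp with 2.70, beside 0.37 and 0.81. Its IgG signal was not well above background, so the ratio of 6.50-fold is uncertain. Its mean signals were 370 for IP and 305 for IgG, and under normexp its value was -0.41.

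**Figure D4:**
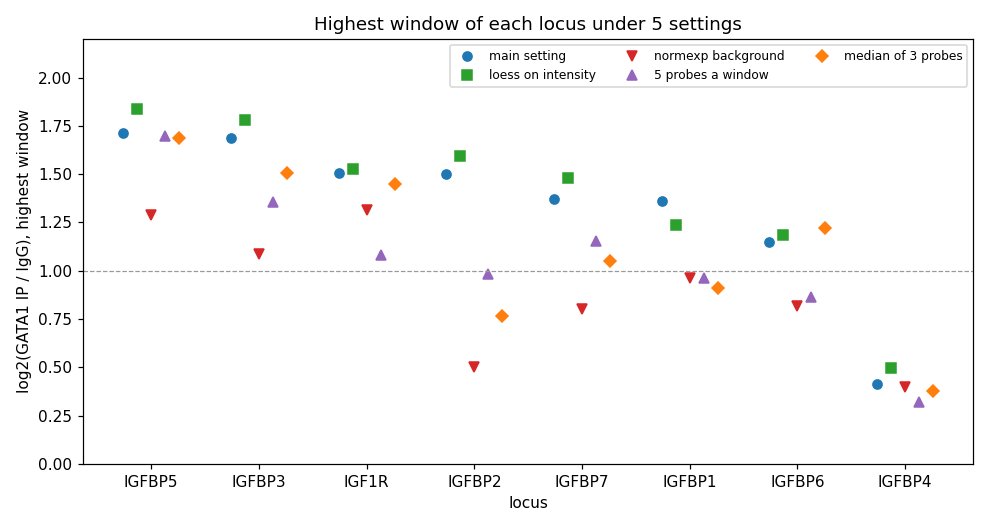
Highest window of each locus (log2 ratio of GATA1 IP to IgG, vertical axis) in the main setting, after loess on intensity, after normexp background correction, with 5 probes a window, and as the median of 3 probes, where the window is chosen anew in each setting; the dashed line is 2-fold. IGFBP5, IGFBP3 and IGF1R stay above 2-fold in all 5 settings, IGFBP4 below it, and IGFBP7 falls to 0.80 under normexp.

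The other 4 promoters that the study checked by PCR lay on the same array as IGFBP7. Their highest windows were 2.45 for VEGF, 2.06 for TNF, 1.79 for RUNX3 and 1.501 for ANXA5, so the 1.37 of IGFBP7 was the lowest of the 5. These are maxima over 45 windows in VEGF, 24 in TNF, 77 in RUNX3, 26 in ANXA5 and 26 in IGFBP7. The regions amplified by PCR were not placed on the profiles. Near the start the order was different: TNF had an enriched window there (2.06), while RUNX3 with 0.83, VEGF with 0.36, IGFBP7 with 0.29 and ANXA5 with 0.20 had none.

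A list of 38 further genes of IGF signaling was described in the same way. Of these, 37 were on the arrays, PIK3CA being the one without a match, and 27 had an enriched window (73%, beside the 59.4% and 54.9% of genes given above). Their median highest window was 1.17 against 1.09 over all genes and 1.22 over the genes with 21 to 84 windows. The listed genes had from 9 (PTPN11) to 88 (PIK3R1) windows, and the shares in this paragraph were not adjusted for that number. An IgG-side window was found in 24 (64.9%, beside 52.9% of all genes). A window with all 3 probes past 2-fold was found in 11, beside 23.2% of all genes. By role, 2 of 3 ligands, 2 of 3 receptors and 4 of 5 IGFBP proteases and their inhibitors had an enriched window. So did 7 of 10 IGFBP-related secreted proteins, 4 of 7 adaptors and 6 of 7 signaling genes, beside 57.1% of all genes.

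Windows of at least 3-fold occurred in 7 of the list (18.9% of 37) and in 2 members (IGFBP3 and IGFBP5), beside 20.6% of all genes. CRIM1, a membrane protein with an IGFBP-like domain, had 3.05 at 1252 bp. PAPPA, which cleaves IGFBP4, had 2.82 at 1500 bp, and the adaptor GRB14 had 2.72 at 1027 bp. CCN2 (listed as CTGF) had 1.95, IGFBPL1 1.74, the kinase AKT1 1.64 and HTRA1, a protease of IGFBPs, 1.62. The protease PAPPA thus stood at the 98.7th percentile of chIP1 and its substrate IGFBP4 near the low end of chIP2. In the same windows normexp values were 2.41 for CRIM1 but 0.97 for PAPPA and 0.88 for GRB14. Each of these 7 listed genes also had an IgG-side window. The lowest was -3.59 in GRB14, -2.62 in PAPPA and -1.58 in CRIM1, so these loci held both directions. The ligands IGF1 and IGF2 had highest windows of 1.11 and 1.28, and the IGF2 window rested on 1 probe of 3.35 beside a lowest probe of 0.11. IGF2R, which clears IGF2, had 1.28, while INSR with 0.71 and IRS1 with 0.92 had no enriched window.

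**Figure D5:**
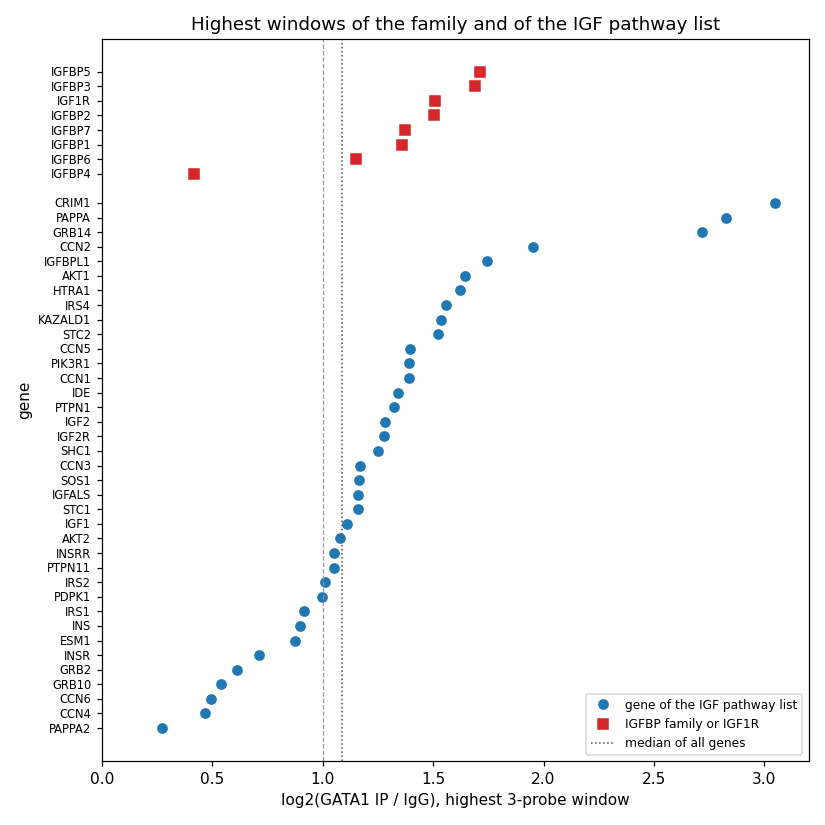
Highest 3-probe window (log2 ratio of GATA1 IP to IgG, horizontal axis) of the 8 members (red squares) and of 37 genes of the IGF pathway list (blue circles), each ordered by value; the dashed line is 2-fold and the dotted line the median of all genes (1.09). IGFBP4 is the only member below 2-fold, and 5 listed genes (CRIM1, PAPPA, GRB14, CCN2 and IGFBPL1) lie above every member.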

How the data were processed

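Dual-color Agilent promoter arrays of Meg-01 cells were used. Per the file headers, the authors extracted the scans with Agilent Feature Extraction 9.5.3.1, and the deposited intensity values had undergone spatial and multiplicative detrending, linear dye normalization and surrogate values for dim spots. The deposited series table holds log10 ratios of IP to IgG and served as an alternative, and the deposited p-value of each probe's ratio as another call rule. The study's own peak calling was not used. Here log2(IP/IgG) of the processed signals was computed per probe (numpy 2.4.6, pandas 2.3.3), leaving out control spots, non-uniformity outliers and probes that neither channel placed well above background (237004 and 236864 probes kept), and centered on each array's median. Loess and normexp (offset 50) were run with limma 3.58.1 in R 4.3.3. Each gene was given the highest and the lowest window among its probes. The steps were tested on simulated data. The pathway list is named by its windows of at least 3-fold plus IGF1, IGF2, IGF2R, INSR and IRS1. Members and lists were chosen with earlier results of these data known. With 1 hybridization per array, the number of arrays limits precision, and no test was run. Promoter sequences are from RefSeq.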

Additional observations from a re-analysis of the deposited data

How the results depend on the processing

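No paired analysis was possible because each probe was hybridized once. Under normexp the members with an enriched window fell from 7 to 3, those with 3 probes past 2-fold from 4 to 1, and the highest window of IGFBP7 to 0.80, which ranked 6th; over all genes, 33.1% had an enriched window. Windows of 5 probes left 4 members enriched (34.1% of all genes) and put IGFBP7 3rd. Single probes put it 2nd, 0.36 above the median of the other members. That value came from the spot at 1900 bp, whose IgG signal was not well above background. With both channels well above background IGFBP7 was 6th, at -0.59 from the median. At 3-fold, 2 members had an enriched and 2 an IgG-side window (20.6% and 22.3% of all genes). Normexp started from the mean and background signals, with an offset of 50, whereas the main values used the processed signals. Causes of the shifts were not tested. Loess, the series table and both other filters on dim probes kept 7 members enriched and IGFBP7 5th. By the deposited p-values 7 members were enriched, a rule that 85.1% of all genes met. Over the single-member highest windows, 10 comparisons lost the call and 62 did not. The 62 include those of IGFBP4, which had no call to lose. All 48 near-start means moved by less than their SD over probes. Dim IgG spots limit precision.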

Other observations

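The profile of IGFBP7 could not be matched to other genes by the rule laid down for it. In steps of 500 bp its probes filled 11 steps, fewer than the 12 shared steps required, so no gene was named. Adjacent probes at most 250 bp apart, which can lie on the same sheared fragment, had a Pearson's r of 0.61 over 340017 pairs of the arrays, 0.70 in IGFBP3 (40 pairs), 0.70 in IGFBP6 (29 pairs), 0.42 in IGFBP7 (24 pairs) and 0.31 in IGFBP4 (18 pairs).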
